A study of Sus scrofa with 15 samples.

Results

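The transcripts of GBP1, GBP2 and TAP1 were followed in 15 Iberian pigs, all castrated males, of which 8 ate a high-oleic diet and 7 a control diet. Backfat RNA was measured with probe sets, groups of short oligonucleotides made for 1 transcript, and every probe set annotated with exactly one of the 3 symbols was taken. These are 3 of 1260 named genes and 5 of 3255 probe sets, 3 for GBP1, 1 for GBP2 and 1 for TAP1. MX1, with 1 probe set, served as the comparison gene. The high-oleic pigs ate a feed enriched in oleic acid and the control pigs a standard feed given in a larger amount, so that both rations carried equal energy and protein. Feeding lasted 24 weeks, from 28 kg live weight to slaughter at about 110 kg, and the inner layer of the fat was sampled at the last rib. Live weight at slaughter lay between 104.5 and 116 kg in high-oleic pigs and between 112 and 133 kg in control pigs. One Affymetrix array was hybridised per animal, and the labels give no age.

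Guanylate-binding proteins are interferon-inducible GTPases that coat and damage the membranes of intracellular microbes. TAP1 forms with TAP2 the transporter that carries peptides from the cytosol into the endoplasmic reticulum, where they are loaded on class I molecules of the major histocompatibility complex. These genes respond strongly to interferon-gamma, and they also respond to type I interferon. MX1, a dynamin-like GTPase that blocks virus replication, is a classical target of type I and type III interferon. In the pig genome assembly Sscrofa11.1, GBP1 and GBP2 are neighbours, and TAP1 lies between PSMB8 and PSMB9, which encode subunits of the immunoproteasome. GBP1 and GBP2 belong to a family of similar sequences, and cross-hybridisation between its members was not tested.

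The values are log2 signals, on which a difference of 1 is a doubling. Array medians lay between 6.38 and 6.67. Of 9 adipocyte markers LEP and PNPLA2 were measured and the rest were not analysed here. LEP, which encodes the fat hormone leptin, was bright in every animal, with its lowest signal of 10.29 in control animal 1. Earlier results of these data had put control animal 1 and high-oleic animal 2 apart by their interferon-induced genes, so both were treated here as single animals, described with no test. The array of high-oleic animal 8 had a median correlation of 0.843 with the other arrays, the lowest of the 15, where the others lay between 0.876 and 0.931. Next lowest were high-oleic animal 2, at 0.876, and control animal 1, at 0.877, followed by control animal 5, at 0.897. The arrays of the 2 singled-out animals thus stood apart over the whole table too.

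TAP1 and GBP2 stood above their diet groups in both high-oleic animal 2 and control animal 1, while GBP1 did so in control animal 1 alone. In both animals the members stood less far above the others than MX1. No member passed the test between the diets.

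TAP1 had a log2 signal of 11.04 in high-oleic animal 2, and 8.99, 9.60, 9.33, 9.25, 9.52, 9.16 and 10.18 in high-oleic animals 1 and 3 to 8. It had 11.10 in control animal 1, and 8.92, 9.60, 9.39, 9.05, 9.10 and 9.55 in control animals 2 to 7. The 2 named animals were thus the brightest of the 15, and high-oleic animal 8 came next. Against the median of the others of the same diet, TAP1 was 1.71 higher in high-oleic animal 2 (3.27-fold) and 1.86 higher in control animal 1 (3.63-fold). These heights were 4.39 and 6.52 times the SD among the other animals of the diet. Apart from these animals the diets overlapped, with TAP1 at 9.43 ± 0.39 (SD, n = 7) in the other high-oleic pigs and 9.27 ± 0.29 (SD, n = 6) in the other control pigs.

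GBP2 was brightest in the same 2 animals. Its signal was 9.86 in high-oleic animal 2, and 8.79, 8.56, 9.07, 8.87, 8.54, 8.56 and 7.90 in high-oleic animals 1 and 3 to 8. It was 10.42 in control animal 1, and 8.69, 9.11, 8.81, 8.21, 8.38 and 8.89 in control animals 2 to 7. High-oleic animal 8, which was next in line for TAP1, was the dimmest of all 15 for GBP2. The height above the median of the others was 1.30 in high-oleic animal 2 (2.46-fold) and 1.66 in control animal 1 (3.17-fold), or 3.50 and 5.01 times the SD of the others. Among the others, high-oleic pigs had 8.62 ± 0.37 (SD, n = 7) and control pigs 8.68 ± 0.33 (SD, n = 6).

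GBP1 departed from this pattern. On its brightest probe set, Ssc.29054.1.A1_at, its signal was 11.67 in high-oleic animal 2, and 11.61, 11.96, 12.25, 11.53, 11.16, 11.57 and 10.88 in high-oleic animals 1 and 3 to 8. It was 12.55 in control animal 1, and 11.43, 11.34, 11.39, 10.68, 11.68 and 11.47 in control animals 2 to 7. High-oleic animal 2 lay in the middle of its group, 0.10 above the median of the others, where its highest animal was high-oleic animal 4. Control animal 1 stood 1.13 above the median of the other control pigs (2.19-fold) and 0.86 above the highest of them.

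The other GBP1 probe sets gave the same order of these animals. On Ssc.29054.2.S1_at high-oleic animal 2 had 8.67, which was 0.48 below the median of the others of its diet, and control animal 1 had 9.97, which was 1.20 above. On Ssc.29054.3.S1_at high-oleic animal 2 had 10.14, which was 0.04 below that median, and control animal 1 had 11.38, which was 1.45 above. High-oleic animal 4 was the brightest high-oleic pig on all 3 probe sets, with 12.25, 9.72 and 10.96, and control animal 5 the dimmest of all 15, with 10.68, 8.46 and 9.23. Over the 15 animals Ssc.29054.1.A1_at and Ssc.29054.3.S1_at correlated with r = 0.992 and rho = 0.979 (permutation p = 1e-05 for each, the smallest that 100000 permutations can give). Ssc.29054.2.S1_at was looser, with r = 0.835 to Ssc.29054.1.A1_at (permutation p = 0.00012, rho = 0.711, permutation p = 0.00397) and 0.878 to Ssc.29054.3.S1_at (permutation p = 2e-05, rho = 0.771, permutation p = 0.00132). Adjusted over these 3 pairs the largest p for r was 0.00012, and without control animals 1 and 5 the r values were 0.988, 0.674 and 0.756, with p of 1e-05, 0.0135 and 0.00346. GBP1 in high-oleic animal 2 was 0.88, 1.31 and 1.24 lower than in control animal 1 on the 3 probe sets, against 0.56 lower for GBP2, 0.06 lower for TAP1 and 0.02 lower for MX1.

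**Figure D1:**
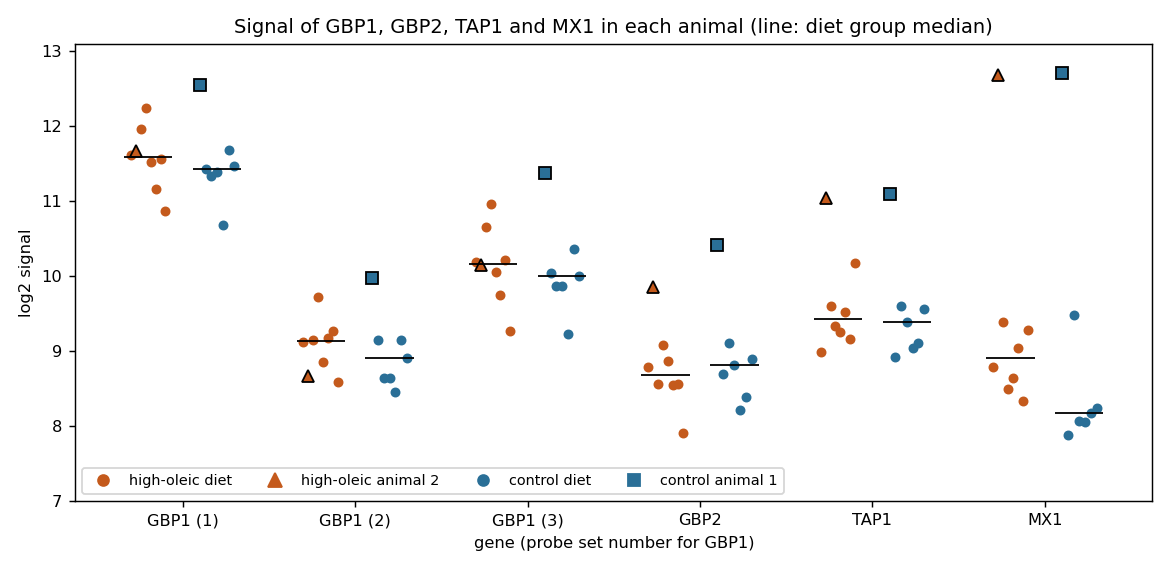
Log2 signal of each animal for the 3 probe sets of GBP1, numbered as Ssc.29054.1.A1_at, Ssc.29054.2.S1_at and Ssc.29054.3.S1_at, and for GBP2, TAP1 and MX1, with high-oleic pigs left of control pigs and lines at the diet group medians. High-oleic animal 2 (triangle) lies within its group for GBP1 and above it for GBP2, TAP1 and MX1, and control animal 1 (square) lies above its group for every gene. Levels of different probe sets are not comparable.

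MX1 had a log2 signal of 12.69 in high-oleic animal 2, and 8.78, 9.39, 8.50, 8.63, 9.04, 8.34 and 9.28 in high-oleic animals 1 and 3 to 8. It had 12.71 in control animal 1, and 7.88, 9.49, 8.06, 8.06, 8.17 and 8.24 in control animals 2 to 7. The heights were 3.90 in high-oleic animal 2 (15.0-fold) and 4.60 in control animal 1 (24.2-fold), or 9.79 and 7.84 times the SD of the others. The height of TAP1 less that of MX1 was -2.19 in high-oleic animal 2 and -2.74 in control animal 1, and the height of GBP2 less that of MX1 was -2.61 and -2.93. For the brightest GBP1 probe set this was -3.80 and -3.46. Each of these is a difference of differences within 1 animal, with no replicate check.

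The baseline can be read per gene only, since probe sets bind their targets with different strength and their levels do not rank transcripts. Among the 13 other animals the median signal was 11.47 for GBP1 on its brightest probe set, 8.69 for GBP2, 9.33 for TAP1 and 8.50 for MX1. GBP1, GBP2 and TAP1 ranged over 1.57, 1.20 and 1.26 log2 units in these 13 animals (SD 0.41, 0.34 and 0.34), and MX1 over 1.60 (SD 0.55).

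Against the whole table, a place above all others of the diet was common in these animals. High-oleic animal 2 was above its 7 group mates in 14.3% of the 3255 probe sets, and in 2 of the 5 member probe sets. Control animal 1 was above its 6 group mates in 21.5% of probe sets, and in 5 of the 5. A height of at least 1 was seen in 11.8% of probe sets in high-oleic animal 2 and 12.1% in control animal 1. The height of MX1 was reached by 11 probe sets, MX1 included, in each animal. That of TAP1 was reached by 130 in high-oleic animal 2 and 127 in control animal 1, that of GBP2 by 228 and 158, and that of the brightest GBP1 probe set by 1280 and 327.

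Of 50 further genes tied to interferon-gamma and antigen presentation, 15 were measured, and their heights were uneven. PSMB8, a catalytic subunit of the immunoproteasome and a neighbour of TAP1, was 1.38 higher in high-oleic animal 2 and 2.08 higher in control animal 1 than the median of the others. PSME1 and PSME2, which form the proteasome activator, were 0.80 and 1.54 higher in high-oleic animal 2, and 0.65 and 0.85 higher in control animal 1. TAPBP, encoding tapasin, which bridges TAP to class I molecules, was 1.20 and 0.72 higher. For each of these 4 genes both animals were the brightest of their diet, but PSME1 in high-oleic animal 2 by 0.06 only. After quantile normalization PSME1 was 0.40 higher in high-oleic animal 2 and 0.34 higher in control animal 1. B2M, the light chain of class I molecules, was 1.29 below the median in high-oleic animal 2 and 1.02 below it in control animal 1 on its brighter probe set, under all others of the diet, as were 16.8% and 18% of probe sets. Its other probe set gave 0.62 and -0.04, so the B2M probe sets disagree. The chaperone CANX was at -0.00 and -0.07, but its signals of 3.16 and 3.09 were dim, so these heights say little.

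The remaining genes of the list were mixed. CXCL9, a chemokine that attracts T cells, was 1.91 higher in high-oleic animal 2 and 2.29 higher in control animal 1, and the ubiquitin-like UBD was 1.95 and 1.15 higher. Of the class II molecules and their regulator, SLA-DRA was 1.06 and 1.14 higher, CIITA 0.36 and 0.70, SLA-DRB1 0.70 and 0.37, SLA-DMB 1.19 and 0.17, and SLA-DQB1 0.03 and 0.42. Quantile normalization moved several of these, to 0.44 and 0.76 for SLA-DRA, 0.31 and -0.11 for SLA-DRB1, 0.96 and 0.01 for SLA-DMB, -0.55 and -0.03 for SLA-DQB1 and 0.53 and 0.78 for CIITA. SLA-DQB1 and SLA-DMB were within the range of the group in both animals, and SLA-DRB1 was so in control animal 1. JAK2, a kinase of the interferon-gamma receptor, was 0.02 and 0.93 higher, so it stood, like GBP1, above the group in control animal 1 only, but its second probe set was at -0.06 and 0.11. ICAM1, an adhesion molecule, was at -0.02 and -0.13.

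Counted over the list, 9 of the 15 genes were above all others of the diet in high-oleic animal 2, with a median height of 0.80, and 9 of 15 in control animal 1, with a median of 0.70. Over all probe sets the median height was -0.02 and -0.01. Of 52 antiviral genes tied to type I interferon, 20 were measured, and 20 of 20 were above all others in each animal. Their median height was 2.79 in high-oleic animal 2 (range 1.44 to 5.33) and 3.35 in control animal 1 (range 1.18 to 5.86). The lowest height in each animal was thus below that of TAP1, at 1.71 and 1.86. Such antiviral genes had singled out these animals, so the counts describe them and are no test. Every probe set analysed varied between the arrays, as given under the processing, so list genes that vary little are not among those counted. How far this shaped the counts and median heights of both lists was not tested. RSAD2, which encodes viperin, was 4.31 and 5.86 higher, the ubiquitin-like ISG15 4.43 and 5.24, and the RNA sensor OAS1 3.07 and 2.74. IFIT1, which binds viral RNA, was 2.43 and 3.31 higher, and MX2, the neighbour of MX1, 1.44 and 2.43. MX2 in high-oleic animal 2 was thus at a height close to those of GBP2 and TAP1.

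**Figure D2:**
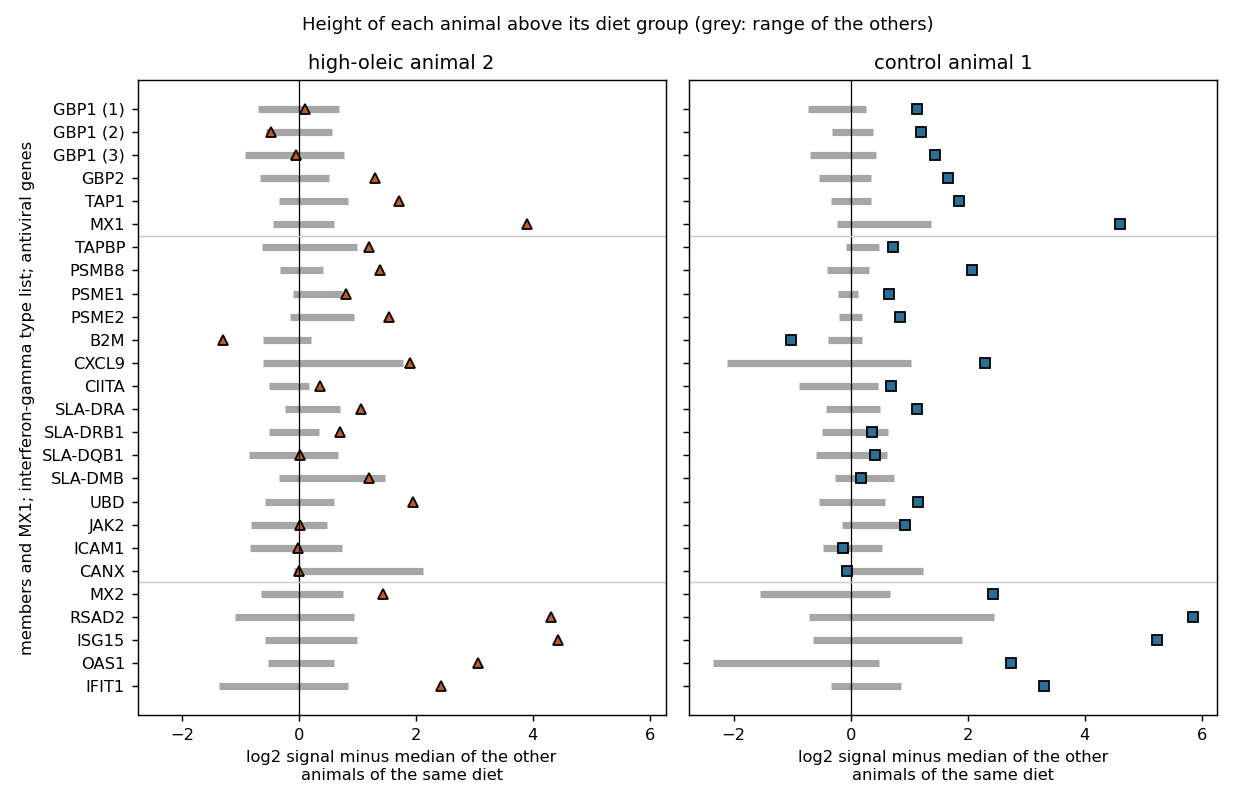
Log2 signal of high-oleic animal 2 (left panel) and control animal 1 (right panel) minus the median of the other animals of the same diet, with the range of those others in grey, for GBP1, GBP2, TAP1, MX1, the 15 interferon-gamma type genes and 5 antiviral genes. GBP1 lies inside the grey range in high-oleic animal 2 and outside it in control animal 1, and TAP1, at 1.71 and 1.86, stays far below MX1, at 3.90 and 4.60.

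Markers of leukocytes were read in both animals, with no test. Of all 3255 probe sets, 14.3% were above all others of the diet in high-oleic animal 2 and 21.5% in control animal 1. A height of at least 1 was seen in 11.8% and 12.1%, and 16.8% and 18% were below all others. In high-oleic animal 2, 4 of 6 measured macrophage genes were at least 1 higher than the median of the others and 3 were above all others, with a list range of -0.57 to 3.94. FCGR1A, the high-affinity receptor for IgG, which interferon-gamma also induces, had 6.97 there against a median of 3.03. In control animal 1 none of the 6 macrophage genes was at least 1 higher, 1 was above all others, FCGR1A at 3.89 against a median of 3.12, and their range was -0.94 to 0.78. Of 5 measured genes of T and NK lymphocytes, 2 were at least 1 higher in each animal, CD2 by 3.29 and 2.56 and GNLY by 1.42 and 1.54. CD3E, a part of the T cell receptor complex, was dim in both, at 2.46 in high-oleic animal 2 and 2.54 in control animal 1, or -0.15 and 0.13 from the median of the others. The single B lymphocyte gene measured, JCHAIN, stood at 0.30 and -0.49, and the 4 endothelial genes had median heights of 0.14 and -0.09. Of these KDR, at 1.13 and 1.25, and ESAM, at 0.68 and 0.53, were above all others in both animals, and TIE1, at -0.49 and -1.41, was below all others. KDR, with signals of 3.58 and 3.76, and TIE1, with 4.02 and 3.07, were dim, so their heights say little. The 7 skeletal muscle genes had median heights of 0.02 and -3.29, and 4 of the 7 were below all others in control animal 1. Both adipocyte genes were below all others in control animal 1, at a median of -0.70, but only narrowly. LEP had 10.29 there against a lowest other of 10.34, and PNPLA2 8.11 against 8.12. In high-oleic animal 2 neither was below all others, at a median of 0.38. In bulk tissue, more cells of a type and more RNA per cell cannot be told apart, and the part of these cells in the heights of TAP1, GBP1 and GBP2 was not tested.

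Outside the 2 animals, TAP1 was the only member whose correlation with MX1 passed the test, and it did not pass without high-oleic animal 8. Over the 13 other pigs TAP1 and MX1 had r = 0.681 (permutation p = 0.00789, adjusted p = 0.0473 over 6 pairs) and rho = 0.687 (permutation p = 0.0116, adjusted p = 0.0697). Without control animal 2 and high-oleic animal 8, the farthest from the TAP1 median, r was 0.562 (permutation p = 0.0745), so it no longer passed. Without high-oleic animal 8 alone, a choice made after seeing the data, it was 0.642 (adjusted permutation p = 0.164). Within diets r was 0.726 in 7 high-oleic pigs (exact permutation p = 0.0522, adjusted p = 0.104) and 0.680 in 6 control pigs (exact permutation p = 0.0375, adjusted p = 0.225). Without the 2 farthest animals of each diet these were 0.952 in high-oleic pigs (exact permutation p = 0.0167) and 0.528 in control pigs (exact permutation p = 0.375). GBP1 and MX1 had r = 0.022 (permutation p = 0.944) with rho = 0.066 (permutation p = 0.834). GBP2 and MX1 had r = -0.026 (permutation p = 0.931) with rho = 0.110 (permutation p = 0.723), and r was 0.310 without high-oleic animal 8. The correlation of TAP1 was not tested against those of the guanylate-binding proteins.

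Among the members, GBP1 and GBP2 had r = 0.597 over the 13 pigs (permutation p = 0.0315, adjusted p = 0.0946), with rho = 0.319 (permutation p = 0.290). It was 0.362 without control animal 5 and high-oleic animal 4 (permutation p = 0.266). With each array centred on its median it passed, at r = 0.683 (adjusted p = 0.0302). Within diets it was 0.793 in 7 high-oleic pigs (exact permutation p = 0.0337, adjusted p = 0.104) and 0.424 in 6 control pigs (exact permutation p = 0.464). GBP1 and TAP1 had r = -0.206 (permutation p = 0.492, rho = -0.159, permutation p = 0.606), and GBP2 and TAP1 r = -0.266 (permutation p = 0.376, rho = 0.066, permutation p = 0.836). Within diets GBP2 and TAP1 had r = -0.812 in high-oleic pigs (exact permutation p = 0.0415, adjusted p = 0.104) and 0.776 in control pigs (exact permutation p = 0.0806, adjusted p = 0.242). Neither passed, and the difference between the diets was not tested. Without high-oleic animal 8, bright for TAP1 and dim for GBP2, r over the remaining animals of both diets was 0.395.

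**Figure D3:**
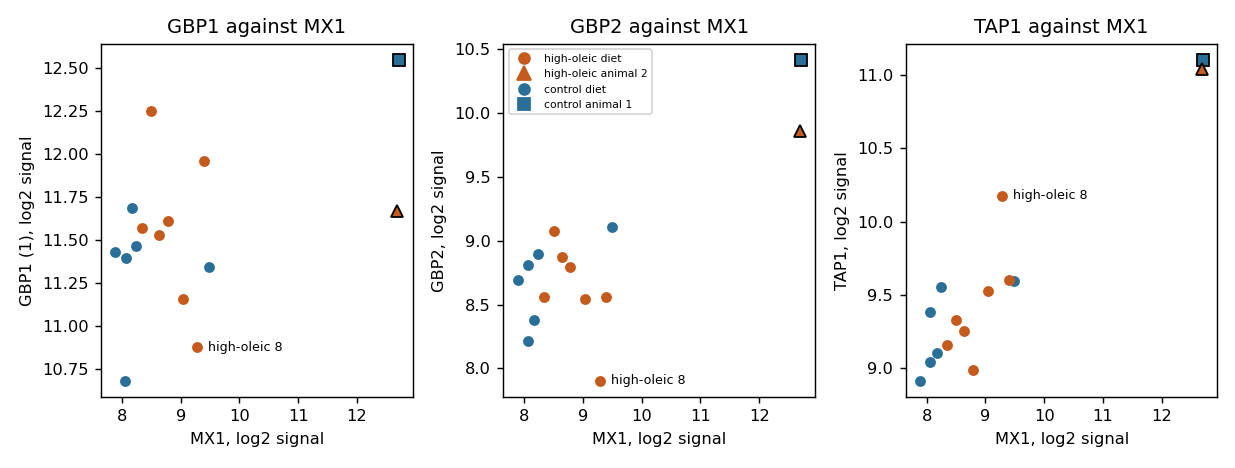
Log2 signal of GBP1 (brightest probe set), GBP2 and TAP1 on the vertical axes against MX1 on the horizontal axis, 1 point per animal. TAP1 and MX1 have r = 0.681 in the 13 animals other than high-oleic animal 2 (triangle) and control animal 1 (square), against r = 0.022 for GBP1 and -0.026 for GBP2.

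The genes with the most similar profiles are given as a description across animals that share the same arrays. Over the 15 animals r rests in part on high-oleic animal 2 and control animal 1, so r over the 13 others is given as well. Over the 15 animals TAP1 was most like LGALS9, encoding galectin-9 (r = 0.970), SHISA5 (r = 0.970), ISG15 (r = 0.963), and DAXX (r = 0.956) and PML (r = 0.951), which encode proteins of nuclear bodies. MX1 ranked at 8 among the probe sets with a gene name, at r = 0.940. Over the 13 other animals TAP1 was most like PSME1 (r = 0.911), SHISA5 (r = 0.897), PSME2 (r = 0.871), the glycosyltransferase B4GAT1 (r = 0.864) and LGALS9 (r = 0.863), and MX1 ranked at 85.

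GBP2 was most like LOC100519098 over the 15 animals (r = 0.952), followed by TNFSF10, the death ligand TRAIL (r = 0.940), IFIT1 (r = 0.934), EIF2AK2, the kinase PKR (r = 0.909), and MORC3 (r = 0.906). MX1 ranked at 47, at r = 0.792. Over the 13 others the closest were FAIM (r = 0.851), BIVM (r = 0.829), ATAD1 (r = 0.804), LOC100519098 (r = 0.799) and TNFSF10 (r = 0.788), and MX1 ranked at 534.

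Over the 15 animals the genes closest to GBP1 were LAMP2, a lysosomal membrane protein (r = 0.811), AKAP7, an anchor of protein kinase A (r = 0.805), BIVM (r = 0.790), the nuclear import receptor IPO11 (r = 0.789) and SLC46A3 (r = 0.775). MX1 ranked at 157, at r = 0.463. Over the 13 others they were C17H8orf4 (r = 0.868), the ubiquitin ligase UBE4A (r = 0.818), LAMP2 (r = 0.815), ATL3, which shapes the endoplasmic reticulum (r = 0.812), and OCLN of tight junctions (r = 0.804), and MX1 ranked at 512.

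The diets were compared to ask whether oleic acid supplementation goes with a change in these genes, and no member passed the test. GBP1 differed between high-oleic and control pigs by 0.07 on its brightest probe set (SE 0.27, 95% interval -0.49 to 0.63), with 11.58 ± 0.43 (SD, n = 8) against 11.51 ± 0.55 (SD, n = 7). Its other probe sets differed by 0.08 and 0.05. GBP2 averaged 8.77 ± 0.56 in high-oleic pigs and 8.93 ± 0.72 in control pigs, which differ by -0.16 (SE 0.32, 95% interval -0.82 to 0.50). TAP1 averaged 9.63 ± 0.67 and 9.53 ± 0.74, a difference of 0.10 (SE 0.34, 95% interval -0.61 to 0.81). MX1 averaged 9.33 ± 1.41 and 8.94 ± 1.75, a difference of 0.39 with a wider interval, from -1.01 to 1.79. The adjusted p was 0.999 for each of them in limma with Benjamini-Hochberg adjustment. Over all 3255 probe sets limma called 0, or 0%, at an adjusted p under 0.05 and 128 at an unadjusted p under 0.05, and the exact permutation test called 0 and 136. In this fit, without live weight, the intervals of the 5 member probe sets lay within a doubling either way, and that of MX1 did not. Intervals with live weight in the fit are not given here.

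Without high-oleic animal 2 and control animal 1 the diet differences were 0.23, 0.30 and 0.26 for GBP1, -0.07 for GBP2, 0.17 for TAP1 and 0.54 for MX1, and the adjusted p stayed at 0.999. With live weight in the fit GBP1 was -0.20, -0.09 and -0.22, TAP1 -0.24 and MX1 -0.38, so these signs turned, and GBP2 was -0.55 with its sign kept (adjusted p = 0.999 in limma). The within-animal difference of each member and MX1 was compared between the diets by an exact permutation test over 6435 splits. High-oleic minus control, it was -0.32 for GBP1 (95% interval -1.90 to 1.27, exact p = 0.654). For GBP2 it was -0.55 (95% interval -1.79 to 0.69, exact p = 0.358) and for TAP1 -0.28 (95% interval -1.33 to 0.77, exact p = 0.532). None passed, with an adjusted p of 0.654 for each. These intervals come from a pooled SD and the t distribution, not from the permutation test.

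**Figure D4:**
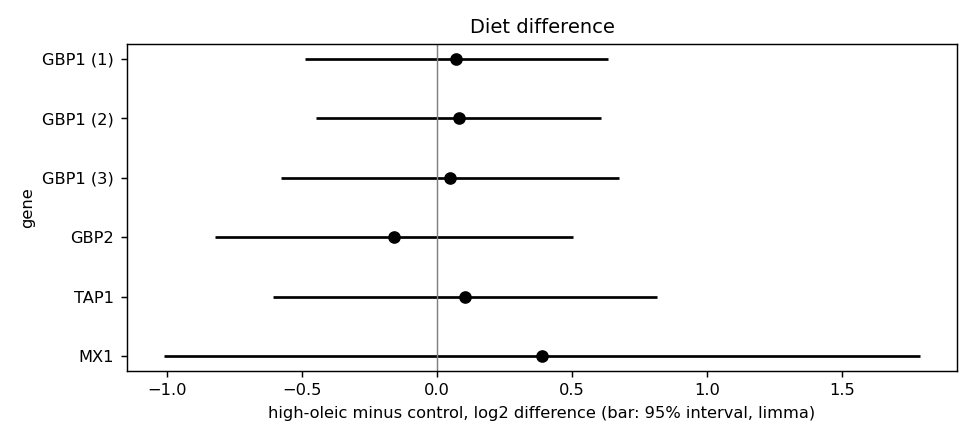
Difference in mean log2 signal between high-oleic and control pigs, with the 95% interval from limma, for the 3 GBP1 probe sets, GBP2, TAP1 and MX1. Every interval includes 0, and that of MX1, from -1.01 to 1.79, is the widest.

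The 15 interferon-gamma type genes gave no call between diets either. Of these, 13 had a higher mean in high-oleic pigs and 2 a lower one. Over all 3255 probe sets, 1522 were higher and 1733 lower. The 15 genes were measured in the same animals, so this count is no test. The median of the 15 differences was 0.27 against -0.03 over all probe sets. In limma 0 of 15 reached an unadjusted p below 0.05, where 3.93% of all probe sets did. CIITA, the regulator of class II genes, came nearest, at 0.51 (95% interval -0.02 to 1.03, adjusted p = 0.999 in limma). Of the 20 antiviral genes 14 were higher and 6 lower, with a median of 0.18.

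At fixed diet, all member probe sets had lower fitted signal in heavier animals, and none passed. The slope per 10 kg was -0.34 for GBP1 on its brightest probe set (SE 0.25), -0.49 for GBP2 (SE 0.29), -0.43 for TAP1 (SE 0.32) and -0.96 for MX1 (SE 0.62). The adjusted p in limma was 0.916 for each. Limma called 0% of probe sets here and had 124, or 3.81%, with an unadjusted p below 0.05. Without control animal 5, the heaviest at 133 kg and the dimmest for GBP1, the GBP1 slopes were 0.12, 0.10 and 0.21. Without high-oleic animal 2 and control animal 1 the slopes of GBP2, TAP1 and MX1 were -0.24, -0.15 and -0.27.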

How the data were processed

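The authors deposited log2 values per probe set, 1 array per animal, made with GCOS and GCRMA per the submitters' processing notes, of which the sources used here give neither version nor settings. That the scale is log2 was read from the values, which lay between 1.49 and 14.36. Of 3272 probe sets, 17 manufacturer controls were left out. In the 3255 others at least 3 arrays lay 1.5-fold or more from the median of the probe set, and no source used here states a filter. Names came from the platform annotation, where 1455 probe sets had 1 symbol, 27 several and 1773 none, and RefSeq (Sscrofa11.1) served for names and neighbours. Diet and live weight were fitted with limma 3.58.1 in R 4.3.3 on all 3255 probe sets, with two-sided tests, adjusted by Benjamini-Hochberg and called under 0.05. The number of arrays limits the precision. The diet model was also run on simulated data, drawn as independent normal noise without outlying animals, unlike these arrays. Its outcome is not given here and is not used as support. Heights, within-animal differences and correlations used the probe set of highest mean signal of each gene, except where all are given. Correlations used 100000 permutations, or all orders under 10 animals. The members, gene lists and tests were chosen with earlier results of these data known. Genes named were the members, MX1, all measured genes of the interferon-gamma list, 5 antiviral genes and the 5 closest profiles per member over 15 and 13 animals. Marker genes and the second probe sets of JAK2 and B2M were chosen after seeing their values. The alternatives were other scaling, filters, variance models, animals left out, live weight, a weight window, the animal number as a block and other baselines. The labels do not pair the animals of the diets by number. Same-numbered animals correlated between -0.161 and 0.296 in their deviations, but other pairs were not compared, so pairing was not tested. Figures were drawn with matplotlib 3.10.9.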

Additional observations from a re-analysis of the deposited data

Results flagged for a closer look

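Within each diet, the brightest or dimmest animal was set against the gap to its nearest neighbour by Dixon's criterion, for the members, MX1 and the other named genes. Of 92 such checks 28 stood apart. Chance flags about 1 in 20 groups, but many of these genes had singled out the animals or were picked for profiles like a member's, so the count is not read against chance. Control animal 1 accounted for 17 of these, high-oleic animal 2 for 8 and high-oleic animal 8 for 1.

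Among the members, GBP2 stood apart in control animal 1, at 10.42, where its diet mates had a median of 8.75, and so did TAP1, at 11.10 against 9.24. By this criterion neither GBP2 nor TAP1 stood apart in high-oleic animal 2, and GBP1 did not stand apart in either animal. MX1 stood apart in both, at 12.69 against 8.78 in high-oleic animal 2 and 12.71 against 8.11 in control animal 1.

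Of the interferon-gamma type genes, PSMB8 stood apart in high-oleic animal 2 (8.15 against 6.77) and in control animal 1 (8.52 against 6.44), UBD in high-oleic animal 2 (10.22 against 8.26), and PSME1 (10.75 against 10.09) and PSME2 (9.91 against 9.06) in control animal 1. CANX stood apart in control animal 7 (4.39 against 3.13), but it was dim, with a median of 3.16 over the 15 animals.

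Of the antiviral genes, RSAD2 (12.72 against 8.41), ISG15 (12.93 against 8.50) and OAS1 (12.68 against 9.62) stood apart in high-oleic animal 2, and IFIT1 (12.92 against 9.61) in control animal 1.

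Of the genes with profiles close to a member, MORC3 stood apart in high-oleic animal 2 (9.93 against 7.89) and control animal 1 (10.34 against 7.82), as did LGALS9 (7.52 against 4.16 and 7.17 against 3.51). Control animal 1 alone stood apart for AKAP7 (11.48 against 10.05), LOC100519098 (10.68 against 7.45), TNFSF10 (9.54 against 5.81), EIF2AK2 (12.51 against 9.16) and ATAD1 (10.07 against 8.96). It did so too for SHISA5 (10.93 against 9.58), DAXX (8.24 against 6.50) and PML (5.64 against 2.40). C17H8orf4 was low in control animal 5 (8.34 against 9.25), and B4GAT1 was high in high-oleic animal 8 (9.38 against 8.64).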

How the results depend on the processing

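Of 449 recomputed values, 402 counted as unchanged, 35 as changed in sign, 2 lost and 3 gained a call, and 7 heights moved by more than the SD of the others. Differences, slopes and correlations counted as unchanged if they kept direction and side of the threshold. Heights did so if they moved by less than that SD, so heights near 0 that changed sign are not among the 35. In high-oleic animal 2, GBP1 on Ssc.29054.3.S1_at was at -0.045, and at 0.105 with array medians centred. The cause of the changes was not tested. The number of probe sets called between diets was 0 under all 25 alternatives. With the animal number as a replicate block, which leaves out high-oleic animal 8, the diet differences were 0.17, 0.15 and 0.18 for GBP1, -0.04 for GBP2, 0.03 for TAP1 and 0.40 for MX1, and no call changed. The numbers pair nothing by the labels. With live weight in the fit they were -0.20, -0.089 and -0.22 for GBP1, -0.55 for GBP2, -0.24 for TAP1 and -0.38 for MX1. Over animals of 109.5 to 118 kg GBP2 was -0.28, TAP1 -0.27 and MX1 -0.38, and the differences less MX1 were 0.56 for GBP1, 0.093 for GBP2 and 0.10 for TAP1. This window leaves out high-oleic animal 2, at 107 kg, and keeps control animal 1, at 112.5 kg. Weight and the loss of high-oleic animal 2 cannot be told apart in it. With high-oleic animal 2 alone left out, GBP2 was -0.31, TAP1 -0.096 and MX1 -0.091.

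Leaving out 1 animal at a time, the diet differences ranged from -0.066 to 0.24, -0.013 to 0.24 and -0.10 to 0.26 for the GBP1 probe sets, -0.31 to 0.088 for GBP2, -0.10 to 0.37 for TAP1 and -0.091 to 1.02 for MX1. The live weight slopes ranged from -0.40 to 0.12, -0.29 to 0.10 and -0.41 to 0.21 for GBP1, -0.57 to -0.31 for GBP2, -0.74 to -0.24 for TAP1 and -1.94 to -0.48 for MX1. The differences less MX1 ranged from -0.77 to 0.15 for GBP1, -0.93 to -0.22 for GBP2 and -0.65 to -0.0055 for TAP1.

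Among the correlations over 13 animals, GBP2 with MX1 was 0.136 after quantile normalization, 0.163 with array medians centred, 0.030 with diet means removed and 0.180 without the 2 farthest animals. GBP1 with MX1 was -0.154 with diet means removed, -0.176 without the 2 farthest and -0.0191 on the mean of its probe sets. GBP1 with GBP2 passed at 0.716 after quantile normalization, 0.683 with medians centred and 0.659 with diet means removed (permutation, adjusted p = 0.0385, 0.0302 and 0.0422). TAP1 with MX1 passed under the same settings, at 0.661, 0.739 and 0.664 (permutation, adjusted p = 0.0432, 0.0248 and 0.0422), and did not pass at 0.562 without the 2 farthest (permutation, adjusted p = 0.224), and GBP2 with TAP1 was 0.279 there. Without high-oleic animal 8, chosen after seeing the data, TAP1 with MX1 was 0.642 (permutation, adjusted p = 0.164), GBP2 with MX1 0.310, GBP1 with TAP1 0.162 and GBP2 with TAP1 0.395.

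Quantile normalization put high-oleic animal 2 at -0.54 for the brightest GBP1 probe set, 1.31 for TAP1 and 3.45 for MX1, and control animal 1 at 0.88 and 1.05 for the other GBP1 probe sets and 1.44 for TAP1. It moved the median height of probe sets at signals of 10 to 12 to -0.38 in high-oleic animal 2 and -0.34 in control animal 1. Against the median of all 13 other animals, control animal 1 was 0.85 higher for GBP1 on Ssc.29054.2.S1_at.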
